A study of Caenorhabditis elegans with 3 samples.

Results

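The sites described here are PQM-1 binding sites that stand in a promoter shared by a pair of divergent genes in the nematode Caenorhabditis elegans, genes that lie side by side and are read away from each other. Of the 4739 sites in the authors' optimal list on the nuclear chromosomes of build ce11, 366 (7.72%, 95% exact Clopper-Pearson interval 6.98 to 8.52) met the rule. Their summit, the base of highest signal in a peak, lay in the promoter of at least 1 plus-strand and at least 1 minus-strand protein-coding gene, with promoters that reach 1000 bp up and 200 bp down from a gene's outermost annotated start. Another 1839 summits lay in the promoter of 1 gene, 29 in promoters of several genes on 1 strand, and 2505 in no promoter. Within the optimal list, where the lowest signal was 31.5, the rule uses position alone and takes no account of signal or sequence. The genes it can reach are those in divergent pairs, 28.3% of all protein-coding genes. That share differs between gene families, with 64.6% of cytosolic ribosomal protein genes and 16.8% of nuclear hormone receptor genes.

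Binding was measured by ChIP-seq, the sequencing of DNA precipitated with the protein, in L4 larvae, whole animals of mixed sex. All worms were of strain OP201, genotype unc-119(tm4063) III; wgIs201, in which an integrated transgene supplies PQM-1 fused at its C-terminus to GFP and FLAG, so the protein measured is the tagged one. There is 1 group with 2 biological replicates and no other condition to compare. Replicate 1 has 2 technical libraries and replicate 2 has 1, which makes 3 libraries. Because whole animals were used, binding in 1 tissue cannot be told from binding in several. Sites are not replicates of an animal, so shares below carry exact intervals that cover counting error over sites only, and no test was run between classes of sites.

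PQM-1 is a C2H2 zinc finger transcription factor known in C. elegans as a counterpart of DAF-16, the FOXO factor of insulin signalling: the pair shift in and out of the nucleus in opposite directions as the pathway is turned down, above all in the intestine. The sequence linked to PQM-1 is the DAF-16-associated element (DAE), TGATAAG, which holds the core recognised by GATA factors such as ELT-2 and ELT-7, regulators of intestinal genes. In a divergent pair a single stretch of sequence carries the upstream region of both genes, so the position of a bound factor alone does not say which gene it acts on.

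The stretches between the starts of a few short pairs show how little sequence these promoters can hold. The first 4 below belong to the strongest head-to-head sites with starts 60 to 300 bp apart with a DAE within 100 bp of the summit. Each runs on the plus strand, 5′ to 3′, from the base after the minus-strand start to the base before the plus-strand start, and is taken from the RefSeq sequence of WBcel235, the assembly that ce11 names. Capitals mark TGATAAG and the looser GATA core WGATAR (W is A or T, R is A or G) on either strand, so that CTTATCA is a DAE on the minus strand. Every TGATAAG also holds WGATAR.
T28H10.2 and lgmn-1: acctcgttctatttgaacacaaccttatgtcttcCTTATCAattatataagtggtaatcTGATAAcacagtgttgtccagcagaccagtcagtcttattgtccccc
fbxa-138 and Y82E9BR.5: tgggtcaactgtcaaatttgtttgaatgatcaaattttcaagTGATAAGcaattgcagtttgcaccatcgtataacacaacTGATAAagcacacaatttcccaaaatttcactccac
C52E2.5 and C52E2.4: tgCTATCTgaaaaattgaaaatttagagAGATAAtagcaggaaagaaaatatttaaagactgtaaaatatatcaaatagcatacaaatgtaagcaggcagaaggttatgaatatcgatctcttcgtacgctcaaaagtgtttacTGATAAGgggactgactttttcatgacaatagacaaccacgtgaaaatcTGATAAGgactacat
gst-42 and D1053.2: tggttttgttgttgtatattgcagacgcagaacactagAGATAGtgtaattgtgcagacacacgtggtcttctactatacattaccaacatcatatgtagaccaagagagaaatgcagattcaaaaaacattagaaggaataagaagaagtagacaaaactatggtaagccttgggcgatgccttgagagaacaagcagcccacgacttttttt

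The pair T28H10.2 and lgmn-1 (legumain, a lysosomal asparaginyl protease) has a stretch of 106 bp on chromosome V, chrV:12512950-12513055, in which 1 DAE on the minus strand and 1 further GATA core stand apart. The summit is base 22 of the stretch, with a signal of 123 in the optimal list, 33.1 in replicate 1's own list and 92.8 in replicate 2's. The stretch of fbxa-138, an F-box gene, and Y82E9BR.5 is 117 bp long at chrIII:1384253-1384369, with its summit on base 47, inside the DAE. Its signals were 102, 44.5 and 65.2 in the same order. Between C52E2.5 and C52E2.4, at chrII:1842937-1843144, 2 copies of the DAE point the same way and the summit on base 139 lies just before the first of them, with signals of 99.6, 26.0 and 74.8. At gst-42, a glutathione S-transferase of tyrosine breakdown, and D1053.2, at chrX:11727937-11728150, the stretch itself holds 1 GATA core. The DAE in that window lies outside the stretch, on the gst-42 side of a summit on base 23, and the signals were 106, 32.3 and 76.1.

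The next stretch is that of the strongest pair with starts as close whose site has no GATA core within 100 bp of the summit. Sites of 1 chromosome were left out of all sequences shown. It is shown because 124 of the 366 sites lacked the core.
ctf-4 and eef-1G: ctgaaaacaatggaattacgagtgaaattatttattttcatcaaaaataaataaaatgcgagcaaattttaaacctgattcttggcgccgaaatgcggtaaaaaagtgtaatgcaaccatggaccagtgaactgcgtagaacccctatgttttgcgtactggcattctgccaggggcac

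The stretch has no base in capitals. It belongs to ctf-4, a replication factor, and eef-1G, a subunit of translation elongation factor 1, and lies at chrV:10965540-10965718. Its summit fell 40 bp inside eef-1G, beyond the end of the 179 bp printed, with signals of 82.5 in the optimal list, 15.1 in replicate 1 and 66.4 in replicate 2.

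The strongest sites lay in longer promoters, and for these the 41 bases centred on the GATA word nearest the summit are given, a DAE where there is one. They belong to the 8 strongest sites on the chromosomes shown.
C49C3.9 and C49C3.21: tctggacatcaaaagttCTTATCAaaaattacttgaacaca
fbxa-134 and F47H4.2: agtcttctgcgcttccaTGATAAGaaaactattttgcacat
F08F3.8 and acl-6: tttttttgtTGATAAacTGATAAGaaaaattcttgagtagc
srh-282 and sma-10: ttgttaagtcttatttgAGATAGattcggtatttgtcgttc
fut-2 and EGAP9.4: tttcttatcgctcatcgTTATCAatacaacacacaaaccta
fbxa-108 and dgat-2: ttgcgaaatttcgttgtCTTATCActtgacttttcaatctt
Y54F10AM.8 and Y54F10AM.6: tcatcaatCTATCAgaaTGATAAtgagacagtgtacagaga
dnpp-1 and rabn-5: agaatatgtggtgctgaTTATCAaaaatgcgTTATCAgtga

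The DAE was the word shown at C49C3.9 and C49C3.21, at fbxa-134 and F47H4.2, at F08F3.8 and acl-6, and at fbxa-108 and dgat-2. At srh-282 and sma-10, at fut-2 and EGAP9.4, at Y54F10AM.8 and Y54F10AM.6, and at dnpp-1 and rabn-5 the window held GATA cores but no DAE. From its middle base the word lay 1 bp from the summit at fbxa-108 and at fut-2, 13 bp from it at srh-282 and at Y54F10AM.8, and 61 bp from it at C49C3.9.

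The strongest shared site stood between C49C3.9 and C49C3.21 on chromosome IV at 17342254 to 17342470, 60 bp upstream of the first gene and 593 bp upstream of the second. The authors' signal, an enrichment over a control that is used here only within a list, was 199 in the optimal list, 47.3 in replicate 1's list and 156 in replicate 2's. Next came fbxa-134 and F47H4.2 at 189 (48.3 and 143 in the replicates), and F08F3.8 and acl-6, an acyltransferase of glycerolipid synthesis, at 175 (47.7 and 132). The site of the chemoreceptor-class gene srh-282 and of sma-10, a regulator of BMP signalling in body size, had the highest replicate 1 value of all shared sites, 60.01, with 113 in replicate 2 and 172 in the optimal list. It lay 22 bp from sma-10 and 999 bp from srh-282, at the edge of the rule. In each replicate these sites overlapped a peak among the 4739 strongest of its list, and their order differed between the replicates. The sites were picked from a list made from these same replicates, so high values there follow in part from the choice.

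Of the intestine marker list, 3 of the 7 genes in divergent pairs were at a shared site. That is 42.9% (interval 9.90 to 81.6), beside 12.9% of all genes in pairs. The 25 strongest shared sites held 0 of these 3 genes, a count too small to read, and the strongest site of the list was that of elt-7 at 86.6. The innexin pair inx-15 and inx-16, gap junction genes of which inx-16 acts in the calcium wave of the gut, shared a site of signal 166 (45.6 and 123), 138 bp from inx-15. The saposin-like antimicrobial pair spp-2 and spp-6 shared 1 of 137 (27.4 and 114.8), with its summit 258 bp from one start and 265 bp from the other. The lectin pair clec-62 and clec-63 shared 1 of 128 (47.1 and 85.1). The triglyceride synthesis gene dgat-2 stood at 152 (45.0 and 108), 846 bp from a summit that was 72 bp from fbxa-108. The lipid transfer protein gene nlt-1 stood at 112 (22.1 and 90.6). The caveolin gene cav-2 stood at 121 (46.6 and 70.9). The amino acid transporter gene aat-4 stood at 113 (25.5 and 85.2), 342 bp from a summit that was 18 bp from T13A10.1.

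The site between dlc-1, a dynein light chain, and nduf-2.2, a complex I subunit, had a signal of 142 (46.3 and 97.3), 445 bp from the nearer start. Those of atp-3, an ATP synthase subunit, with F27C1.2, of rpl-20 with Y17G9B.5, of rpl-15 with K11H12.8 and of iff-2, a translation factor, with F54C9.14 had signals of 128, 125, 119 and 116. These 4 were the sites among the 25 with no GATA core within 100 bp of the summit, and 21 of the 25 had one. The DAE was present at 11. The other pairs were fut-2 and EGAP9.4 (157), Y54F10AM.8 and Y54F10AM.6 (152), dnpp-1 and rabn-5 (151), C42D4.13 and srlf-7 (151), K07G5.4 and K07G5.5 (128), T28H10.2 and lgmn-1 (123), C56A3.6 with cav-2, srh-70 and the homeobox gene ceh-99 (121), Y43F8B.23 and Y43F8B.12 (116), T13A10.1 with aat-4, ZK892.3 with nlt-1, and clec-41 and dhc-3 (109). All 25 summits lay between the starts, and 13 lay within 100 bp of the nearer one.

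Over the 366 sites the median signal was 51.2, with quartiles of 39.1 and 72.0 and extremes of 31.5 and 199. Single-gene promoter sites had a median of 56.1 and all optimal sites one of 55.4. The strongest shared site ranked 36 in the optimal list, 0 of the 25 strongest optimal sites and 5 of the 100 strongest were shared sites, and 160 of the 366 (43.7%) stood among the stronger 50% of the list. Shared sites therefore sat somewhat low in the list, with wide overlap.

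Replicate values showed the same sites at different levels. A peak of replicate 1 and a peak of replicate 2 overlapped 364 of the 366 by at least 1 bp, and the other 2, at cdk-4 with F18H3.1 and at pak-2 with C45B11.9, had no overlap in replicate 1. Both replicate lists also hold background peaks, and optimal peaks come from these same replicates, so a high overlap follows in part from how the lists were made. In replicate 1 the values ran from 2.33 to 60.01 (median 16.2, against 17.3 at all optimal sites) and in replicate 2 from 6.82 to 156 (median 37.6, against 40.0). The scales of the lists are not comparable. Across the 364 sites, which share libraries and are not independent replicates, Spearman's rho between replicates was 0.50, against 0.582 over all optimal sites. Among the 4739 strongest peaks of each replicate's list, 292 shared sites were overlapped in replicate 1, 330 in replicate 2, 264 (72.1%) in both and 8 in neither. For all optimal sites the share in both was 75.6%.

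**Figure D1:**
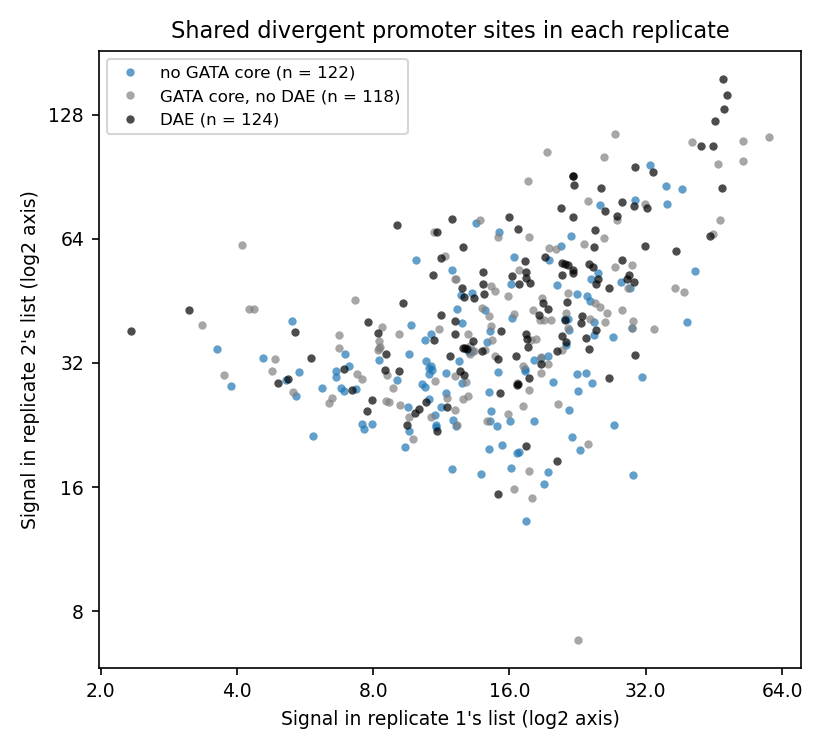
Authors' signal of each shared site overlapped in both replicates, replicate 1 on the x axis and replicate 2 on the y axis, both log2 axes, with 1 point per site coloured by the words within 100 bp of its summit (DAE, GATA core without DAE, or no GATA core). The 3 classes overlap widely, and rho over the 364 points was 0.50.

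Most of the sites lay in the gap between the genes. Starts stood head to head at 363 sites, with the minus-strand start to the left of the plus-strand start, and at the other 3 (Y43F8B.13 with Y43F8B.14, F37C12.21 with F37C12.10, and W03A5.2 with Y32H12A.8) the starts overlapped. The summit lay between the starts at 313 sites (85.5%, interval 81.5 to 89.0) and inside a gene at 50 of the head-to-head ones. Promoters reach 1000 bp up but 200 bp down, so the rule itself favours this place. How much of the shared sequence lies between starts was not computed. At single-gene promoter sites the summit lay upstream of the start in 89.8%. By annotation 311 summits (85.0%) lay outside protein-coding genes, 42 in a 5′ UTR, 7 in a coding exon and 6 in an intron. A non-coding RNA gene covered 21 summits: 18 lay in genes of the class ncRNA, 2 in lincRNA and 1 in antisense RNA genes.

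Starts stood 12 to 1709 bp apart, with quartiles of 397, 624 and 903.5 bp. The closest head-to-head pair was F32D8.14 and F32D8.5, at 12 bp with a signal of 31.9, and the widest K01A2.4 and the collagen gene col-69, at 1709 bp. That widest site had signals of 42.3 in the optimal list, 2.33 in replicate 1, the lowest of all shared sites there, and 38.2 in replicate 2. For pairs more than 1000 bp apart the rule itself keeps a summit away from both starts, so position within the gap is bounded there by construction.

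Summits were spread along the gap. Of those between starts, 163 of 313 (52.1%, interval 46.4 to 57.7) lay in the middle 50% of it. The nearer start was a median of 121 bp away (quartiles 48 and 208) and the farther start 492 bp (284 and 732). The nearer start was within 50 bp at 100 sites (27.3%), within 100 bp at 161 (44.0%) and within 200 bp at 270 (73.8%, interval 68.9 to 78.2). At single-gene promoter sites the start was within 200 bp at 51.8%, with a median of 191 bp, a comparison that gives the shared sites 2 starts to be near. Both starts were within 200 bp at 51 sites (13.9%) and within 500 bp at 188 (51.4%). The distances to both starts differed by at most 50 bp at 39 sites (10.7%), among them spp-2 and spp-6. The nearer gene was on the plus strand at 182 of 366 sites.

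**Figure D2:**
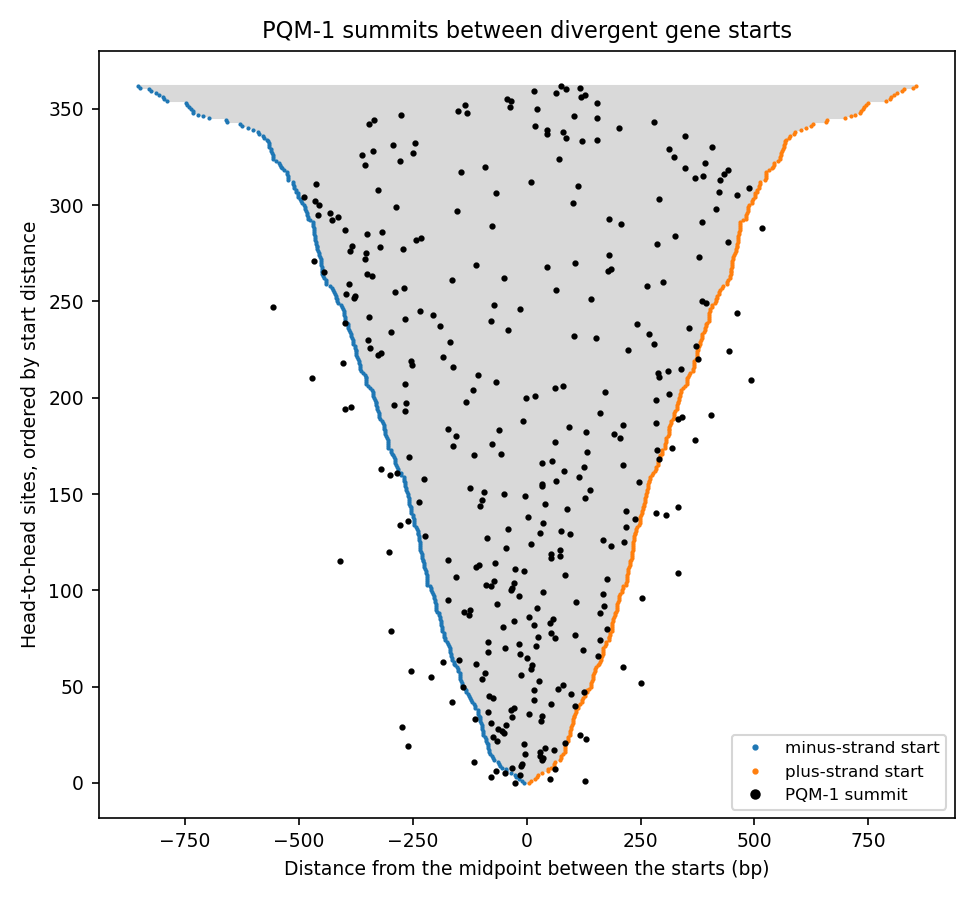
Each row is 1 of the 363 head-to-head sites, ordered by the distance between the starts; the x axis is the distance in bp from the midpoint between them. Blue points mark minus-strand starts, orange points plus-strand starts and black points PQM-1 summits, 313 of which lie between the starts.

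Shared promoter sequence held more summits per length than promoter sequence of 1 strand. The annotation has 2093 kb of sequence in promoters of both strands, with 17.5 optimal summits per 100 kb (exact Poisson interval 15.7 to 19.4), and 19426 kb in promoters of 1 strand, with 9.62 (9.19 to 10.06). Sequence outside promoters had 3.18. The ratio of the first 2 densities was 1.82 (1.62 to 2.04). Shared sequence lies closer to a start on average, and at matched distance the gap was smaller. Within 50 bp of the nearest start the densities were 27.8 and 18.0 per 100 kb, above 50 and up to 100 bp 18.0 and 15.7, above 100 and up to 200 bp 18.1 and 12.9, and above 200 and up to 300 bp 19.7 and 15.3. Up to 500 bp they were 9.62 and 7.48, and up to 1000 bp 8.42 and 5.11. The shared value was the higher in all 6 classes, but the intervals overlapped in 4, those ending at 100, 300, 500 and 1000 bp.

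**Figure D3:**
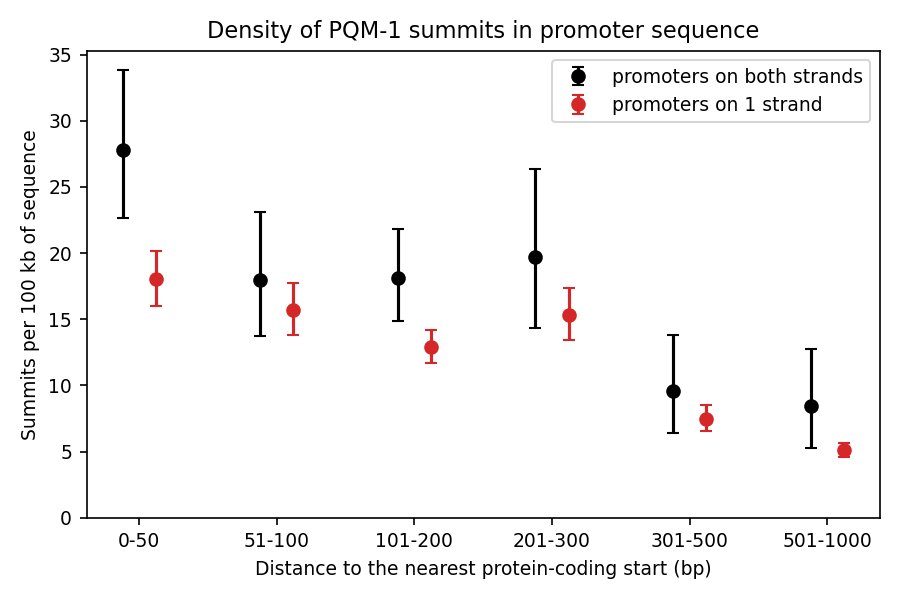
Optimal PQM-1 summits per 100 kb of promoter sequence (y axis) by distance in bp to the nearest protein-coding start (x axis), for sequence in promoters of both strands (black) and of 1 strand (red), with exact 95% Poisson intervals for counting error. Both fall beyond 300 bp, and black lies above red in each class, with overlapping intervals in 4 of the 6.

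Seen from the genes, 3072 pairs on opposite strands have overlapping promoters, and 371 of them (12.1%) held at least 1 summit in the overlap. The share by distance between starts was 12.1% for head-to-head pairs up to 200 bp apart, 13.4% up to 400 bp, 18.9% up to 700 bp, 20.7% up to 1000 bp and 5.22% up to 2000 bp. The shared stretch differs in length with distance, and per 100 kb of it these classes held 23.4, 19.2, 20.1, 19.6 and 10.5 summits. Up to 1000 bp apart the classes thus held similar numbers per length. The 366 sites stand at 728 genes, 12.9% of the 5656 genes in such pairs, with 2 genes at 352 sites and 3 at 14.

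On the X chromosome shared sites were few. Autosomes held 57 to 100 of them each, and X held 27, which is 2.56% of the 1053 optimal sites there against 7.54 to 10.5% on the autosomes. Divergent pairs are scarcer on X as well: 13.6% of its genes are in one, against 28.8 to 33.3% on the autosomes. Counted over the pairs, 28 of 190 on X (14.7%) had a summit, within the range of 9.57 to 15.4% on the autosomes.

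The DAE and the GATA core were less frequent at shared sites than at promoter sites of 1 gene. TGATAAG, searched on both strands within 100 bp of the summit, was at 124 of the 366 (33.9%, interval 29.0 to 39.0), against 44.6% of single-gene promoter sites and 44.1% of all optimal sites. WGATAR was at 242 (66.1%, 61.0 to 71.0), against 82.7% (80.9 to 84.4) and 84.2%. In windows of the same length at the middle of the shared sequence of 2701 divergent pairs without a summit the shares were 3.30% and 36.6%. Shared sites thus carried both words more often than shared promoters without an optimal summit and less often than single-gene promoter sites. Pairs without an optimal summit are not shown to be unbound, and their windows are not centred on a summit. Median GC content was 37.3% at shared sites, against 36.3% at single-gene promoter sites, 36.8% at all sites and 33.8% in pairs without a summit. The part of GC content in these shares was not tested.

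The core was the less frequent at shared sites in each class of distance to the start. With the nearer start within 50 bp the share was 69.0% at shared and 88.1% at single-gene sites, above that and up to 100 bp 73.8% and 90.1%, up to 200 bp 63.3% and 83.8%, and up to 1000 bp 61.5% and 78.3%. Signal moved with the words. With the shared sites cut into 5 classes by signal, the core was at 48.6% of the weakest class and 80.8% of the strongest, and the DAE at 23.0% and 45.2%. The 124 sites with no core had a median signal of 43.4, the 118 with a core but no DAE 51.5, and the 124 with the DAE 60.7. Single-gene promoter sites showed the same order, with medians of 44.2, 55.6 and 64.0.

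Where the DAE was present it lay a median of 28 bp from the summit, and within 25 bp at 61 of the 124 sites. It pointed along the strand of the nearer gene at 43 of 120 sites with copies on 1 strand (35.8%, interval 27.3 to 45.1), and at single-gene sites along the gene at 338 of 760 (44.5%). The 4 sites with copies on both strands were those of ceh-99 and srh-70 (signal 121, 30.2 and 95.5 in the replicates), asp-12 and asp-6, a pair of aspartyl proteases (62.1, 23.0 and 40.0), oac-6 and C31A11.13 (47.5, 18.8 and 31.9) and wht-7 and Y42G9A.1 (41.9, 8.52 and 33.6).

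The other words were rarer. GAGAGA was at 81 shared sites (22.1%), against 25.5% of single-gene promoter sites, 26.4% of all optimal sites and 11.96% of pairs without a summit. Among sites with no GATA core it was at 24.2% of shared sites (interval 17.0 to 32.7) and 39.9% of single-gene promoter sites (34.5 to 45.6). GTAAACA, the core bound by DAF-16, was at 5.46% against 4.89% of single-gene sites, CACGTG, an E-box, at 6.01% against 5.93%, TGACGTCA, bound by CREB and ATF factors, at 1.09% against 0.979%, and TTCNNGAA, the pattern of heat shock elements, at 9.29% against 7.07%. In pairs without a summit these words were at 3.33%, 3.89%, 1.04% and 12.9%, in the same order, so TTCNNGAA was more frequent there than at shared sites. A word in a window is a description and not evidence that its factor binds there.

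**Figure D4:**
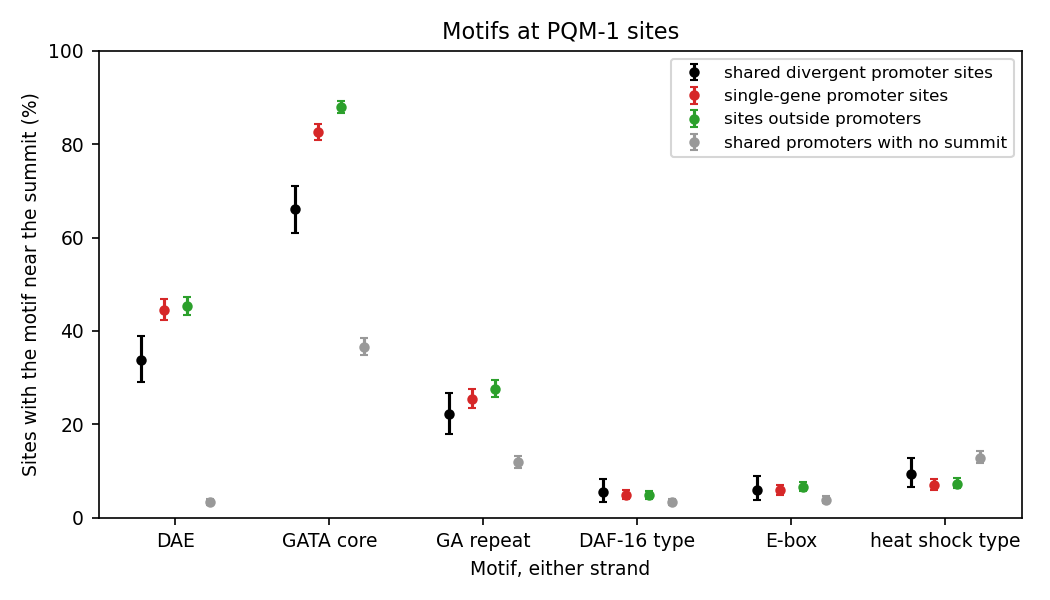
Share of sites (y axis, %) with each word within 100 bp of the summit, on either strand (x axis: DAE, GATA core, GAGAGA repeat, DAF-16 core, E-box and heat shock pattern), at shared divergent sites (black), single-gene promoter sites (red), sites outside promoters (green) and divergent pairs with no summit (grey), with exact 95% intervals. The core stood at 66.1% of shared sites against 82.7% of single-gene promoter sites.

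Of the gene lists, that of cytosolic ribosomal proteins had the most genes at shared sites. Of the 53 cytosolic ribosomal protein genes in divergent pairs, 23 (43.4%, interval 29.8 to 57.7) were at a shared site, beside 12.9% of all genes in pairs. Of all 82 such genes, 37 had a summit in a promoter of any kind, against 2553 of 19973 protein-coding genes. Of those 37, 62.2% were at a shared site, against 28.5% of the 2553. That share was not particular to this list: it was 65.5% of 29 for chemoreceptor genes, and 23.3% of 30 for UDP-glucuronosyltransferase genes. Genes of this list are also more often in a divergent pair, 64.6% against 28.3% of all genes. The 21 sites had signals from 32.3 to 125 with a median of 43.8. The strongest were those of rpl-20 (125 in the optimal list, 38.6 in replicate 1, 84.5 in replicate 2), rpl-15 (119, 35.5 and 86.1) and rps-1 (79.1, 28.2 and 50.3). In 2 cases both genes were ribosomal: rpl-24.1 with rps-10 (43.8, 17.2 and 25.2) and rps-30 with rpl-39 (35.1, 16.6 and 19.3). The ribosomal gene was the nearer of the pair at 10 of the 23 genes, so at the other 13 the partner's start was closer, as that of ekl-4 was beside rps-20, while rpl-12 was 58 bp from the site it shares with lin-54.

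The GATA core was at 4 of those 21 ribosomal sites and the DAE at 0. At single-gene promoter sites of ribosomal genes the core was at 4 of 12. Among other upkeep genes the core was at 1 of 7 shared sites of translation factors and tRNA synthetases (3 of 6 at single-gene sites), 0 of 3 of the proteasome (1 of 2), 3 of 8 of mitochondrial respiration (1 of 6), 1 of 6 of ER folding and secretion (3 of 11) and 1 of 6 of vesicle trafficking (7 of 12). Mitochondrial ribosomal protein genes went the other way, with the core at 3 of 4 shared sites (1 of 2). Named examples without it were iff-2 (116, 35.7 and 77.6), eef-1G, the complex V gene atp-3 (128, 32.6 and 96.5), nduc-2 of complex I (91.0, 21.9 and 64.8), enpl-1, the ER chaperone GRP94 (66.6, 20.4 and 49.4), pdi-3, a protein disulfide isomerase (55.0, 16.2 and 41.1), rpn-3 of the proteasome with hsp-110, a chaperone (50.4, 23.6 and 30.3), and the vacuolar ATPase gene vha-8 (108, 30.3 and 79.5). Of these, nduc-2, pdi-3 and vha-8 were the farther gene of their pair, 807, 633 and 408 bp from the summit. Their partners Y71H2AM.20, ubql-1 and C17H12.2 were 97, 542 and 178 bp from it. Without the 21 ribosomal sites the share of the core over the other 345 was 69.0% and that of the DAE 35.9%, still below the shares at single-gene sites.

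**Figure D5:**
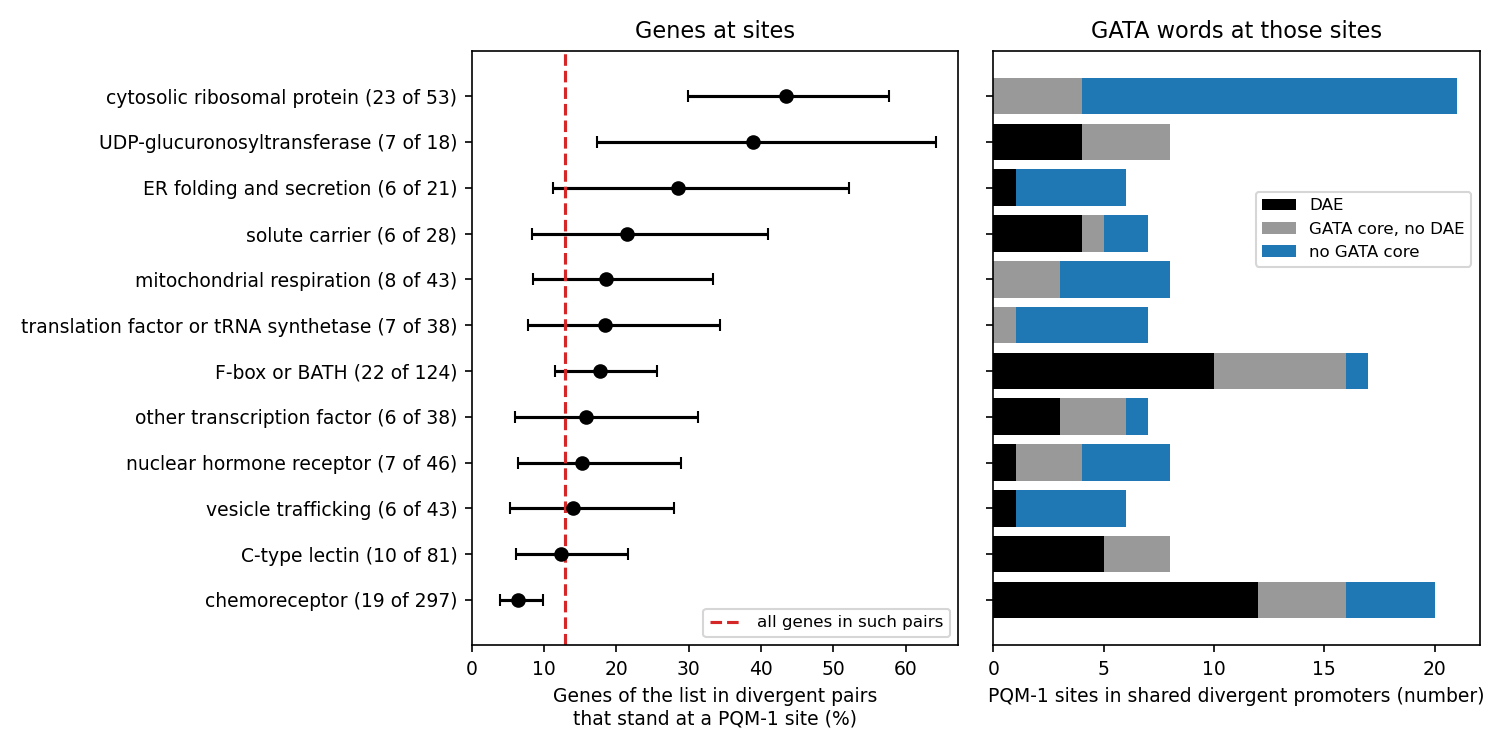
Left, share (x axis, %) of the genes of each list in divergent pairs that stand at a shared PQM-1 site, with exact 95% intervals and the share of all such genes as a dashed line, for the lists with 6 or more genes at sites. Right, number of shared sites of each list by word: DAE (black), GATA core without DAE (grey), no core (blue); the 21 ribosomal sites include 17 without a core, and the 8 UDP-glucuronosyltransferase sites include 0.

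Families of detoxification and defence more often had the core at their shared sites, on small counts. UDP-glucuronosyltransferase genes, which conjugate foreign compounds, were at shared sites in 7 of 18 cases (38.9%, interval 17.3 to 64.3), beside 12.9% of all genes in pairs. Of all genes with a summit in any promoter 28.5% were at a shared site, against 23.3% of the 30 such genes of this family. Their 8 sites all had the core, as did 21 of 25 single-gene promoter sites of the family, and they were the nearer gene at 7 of the 8, the exception being the stronger site of ugt-53. They included ugt-24 (82.8, 20.3 and 60.6), ugt-17 (77.3, 11.1 and 66.5) and ugt-53 (77.0, 21.6 and 55.3). Cytochrome P450 genes were at a shared site in 4 of 16 cases (25%, interval 7.27 to 52.4), at 3 sites all with the core, which was at 20 of 23 single-gene sites: cyp-33E2 (107, 22.2 and 86.4), the pair cyp-33C6 and cyp-33C7 (67.8, 21.6 and 47.4) and cyp-35C1 (35.6, 17.7 and 17.5). Glutathione S-transferases were at one in 3 of 17 cases (17.6%, 3.80 to 43.4), each with the DAE, against the DAE at 3 and the core at 7 of 13 single-gene sites: gst-42, gstk-1 (40.0, 5.37 and 38.1) and gst-36 (33.9, 20.3 and 18.5). For cytochrome P450 and glutathione S-transferase genes alike the interval includes the 12.9% of all genes in pairs. C-type lectin genes, a family with immune members, were at a shared site in 10 of 81 cases (12.3%), near the 12.9% of all genes, and 8 of 8 sites had the core. Immune effector and response genes had it at 2 of 3 shared sites and 17 of 17 single-gene ones.

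F-box and BATH genes, whose products select proteins for ubiquitination, were at shared sites in 22 of 124 cases (17.7%, interval 11.5 to 25.6). This interval includes the 12.9% of all genes in pairs. The core was at 16 of their 17 sites, and at 58 of 59 single-gene promoter sites of the family. Strong examples were fbxa-134, fbxa-108 and fbxa-138, and 5 sites lay between pairs of fbxa genes, from fbxa-19 with fbxa-80 at 85.3 (38.9 and 47.4) to fbxa-39 with fbxa-48 at 33.2 (8.53 and 25.9). Chemoreceptor genes were at shared sites in 19 of 297 cases (6.40%, interval 3.90 to 9.81), below the 12.9%, and were the nearer gene in 7 of the 19. Counted over genes with a summit in any promoter the direction was the other: 65.5% of the 29 chemoreceptor genes were at a shared site, against 28.5% of all such genes. Besides srh-282 and srh-70, srz-56 stood at 106 (28.3 and 78.8), 813 bp from a summit that was 321 bp from C39B5.10.

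Genes of transcription factors were at shared sites at about the share of all genes in pairs, 12.9%. The GATA factor elt-7, which acts with ELT-2 in gut differentiation, was 83 bp from a site it shares with C18G1.9, with a signal of 86.6 (28.4 and 56.7) and a DAE. The other intestine markers were ifc-1, an intermediate filament gene, beside str-39 (77.0, 22.1 and 52.7) and the metallothionein gene mtl-2 beside T08G5.1 (62.7, 12.2 and 51.2). In each of these pairs the partner's start was the closer to the summit. The insulin-like gene ins-7, a ligand of the DAF-2 receptor, was 150 bp from a site of 66.1 (21.5 and 45.0). Nuclear hormone receptor genes were at shared sites in 7 of 46 cases (15.2%, interval 6.34 to 28.9), among them nhr-80, which promotes fatty acid desaturation (81.7, 30.1 and 50.2), and nhr-68 (62.4, 12.1 and 51.01). At the sites given for nhr-80 and nhr-68 the partner's start was the closer. Other transcription factor genes were at them in 6 of 38 cases (15.8%, 6.02 to 31.3). Of these, zip-2, a regulator of the response to Pseudomonas infection, stood at 92.0 (31.9 and 61.4) and ceh-38 at 51.4 (18.8 and 33.1).

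ABC transporter genes were at shared sites in 4 of 16 cases (25%, interval 7.27 to 52.4) and solute carrier genes in 6 of 28 (21.4%, 8.30 to 40.95), both with intervals that include the 12.9%. The former included wht-2 (88.1, 15.97 and 72.2) and haf-6 (45.7, 8.18 and 37.8), the latter the zinc transporter zipt-2.4 (73.4, 26.6 and 48.6) and slc-25A42 (63.6, 29.8 and 38.8). Short-chain dehydrogenases included dhs-21 (67.7, 25.3 and 43.7). Beside the 12.9% of all genes in pairs, histones had 2 of 68 at shared sites (2.94%, interval 0.358 to 10.2) and germline genes 1 of 41 (2.44%, 0.0617 to 12.9). Collagens had 2 of 45, mitochondrial import and carrier genes 0 of 9, neuron markers 0 of 7 and muscle genes 0 of 3, counts whose intervals include the 12.9%.

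Pairs of genes with the same name class, the letters before the hyphen, accounted for few of the sites. In 16 sites (4.37%) both genes bear the same name class. Such pairs held a summit in 16 of 193 cases in the genome (8.29%, interval 4.81 to 13.1), and the interval includes the 12.1% of all pairs. Beside those already given they were lst-5 with lst-6 (70.8, 17.4 and 53.1), pals-6 with pals-14 (64.3, 14.0 and 49.8), clec-83 with clec-84 (61.2, 11.3 and 57.6), hrg-4 with hrg-6 of the haem transport family (60.8, 14.9 and 47.7), the splicing factors rsp-1 with rsp-2 (49.6, 24.3 and 28.6) and the histones his-61 with his-62 (43.8, 8.23 and 36.2), and the other fbxa pairs at 60.02, 59.2 and 49.0.

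A pair of sites shared the same promoter in 9 cases, with summits 200 to 965 bp apart (median 530). At ugt-53 and srj-49 the stronger site (77.0) lay 433 bp from srj-49 and the weaker one (50.9, with 20.5 and 25.5 in the replicates) 40 bp from ugt-53. The bZIP gene zip-2 had a summit 141 bp inside the gene (92.0), and a second one (43.5, 8.28 and 34.9) 119 bp inside its partner ceeh-1, an epoxide hydrolase. At nhr-80 the stronger summit (81.7) lay 558 bp upstream and the weaker one (61.7, 15.9 and 46.5) 16 bp inside the gene. At nlt-1 and at slc-25A42 both optimal sites overlapped the same peak in each replicate, so the replicates do not separate them. The other pairs were B0252.1 with B0252.5, C36B1.6 with C36B1.13, R11H6.2 with pes-9, and ZK177.3 with sahd-1, whose sites had almost equal signals of 49.1 and 49.0 in the optimal list but 4.26 and 17.6 in replicate 1 and 43.3 and 27.5 in replicate 2.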

How the data were processed

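PQM-1 ChIP-seq peak lists were analysed for 1 group of 2 biological replicates (3 libraries). The deposited lists on ce11 give the authors' signal per peak, made against a control alignment per the labels, which was not used here. Per the deposited readmes, the optimal list was derived from separate lists of each replicate and of the pool. Not given in the sources used here: aligner, caller and IDR settings. The deposited −log10 q-value is constant in the optimal list and was not used. Peak lists hold no read counts, so depth is unknown. Python 3.11.15, pandas 2.3.3 and scipy 1.17.1 were used to assign summits to promoters (Ensembl release 115), search 7 words within 100 bp of summits and compute exact Clopper-Pearson and Poisson intervals, after scripts were checked on simulated data. Signals of replicates come from the peak overlapping the optimal peak by at least 1 bp. Genes were named by rank of signal, gene list and pair type. Those of vesicle, solute carrier and immune lists were corrected after values were seen, by removing name classes outside the list's title. The members, words and 34 gene lists were chosen with earlier results of these data known. Alternatives covered promoter size, peak list, motif window, summit position and each replicate. One sequence chosen by the same rule is not reported here.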

Additional observations from a re-analysis of the deposited data

How the results depend on the processing

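No paired analysis was possible because there is 1 group and no test. With promoters of 500 bp upstream and 100 bp downstream, 181 sites (3.82%) at 365 genes were left, 90.6% between their starts, with TGATAAG at 27.6%, WGATAR at 57.5% and a summit in 10.05% of pairs. With 2000 bp upstream there were 656 sites (13.8%) at 1338 genes, WGATAR at 73.0% and a summit in 13.7% of pairs. Among the stronger 50% of optimal peaks, 160 sites (6.75%) at 318 genes had a median signal of 75.4, TGATAAG at 45.6% and WGATAR at 78.1%, with a summit in 5.21% of pairs and a density ratio of 1.56. In the pooled list, taking 2 times as many peaks, 820 sites (8.65%) at 1576 genes had a median signal of 28.5, TGATAAG at 21.1% and WGATAR at 51.7%, with 26.5% of pairs and a ratio of 2.15. Windows reaching 50 bp from the summit gave TGATAAG at 24.3% and WGATAR at 53.6%, and windows reaching 200 bp WGATAR at 79.0%. With 1 replicate left out, the 4739 strongest peaks of the other replicate's list were taken, with no new selection of reproducible peaks. The number of sites was then 358 to 379, partly set by that fixed list length, and WGATAR 58.8 to 69.3%. The median signal was not computed there, since each list has its own scale. With other promoter sizes, other peak lists and either replicate left out, WGATAR was less frequent at shared than at single-gene promoter sites, which had it at 70.9 to 91.4%. The other window lengths were not run at single-gene sites. The cause of these shifts was not tested, beyond the sequence and peaks each setting adds or removes. Read depth is unknown and limits what a missing peak means.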
